A study of Mus musculus with 6 samples.

Results

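The enzymes of serine synthesis and of folate-bound one-carbon metabolism were examined in cold-exposed inguinal fat of mice with and without adipocyte Foxp4. The 10 genes, Phgdh, Psat1, Psph, Shmt1, Shmt2, Mthfd1, Mthfd2, Mthfd1l, Aldh1l1 and Aldh1l2, were chosen by name for their place in the pathway, with earlier results of these data known. All 10 were found among the 21900 gene symbols of the expression table. The knockout group, labelled Foxp4AdipoQdelta/delta, had 3 samples, in which Cre recombinase under the adiponectin (Adipoq) promoter, active in mature adipocytes, had deleted the forkhead transcription factor Foxp4. The control group, labelled Foxp4fl/fl, had 3 samples. Both groups were C57BL/6 mice aged 2 months, on chow and housed at 22 °C until they were kept for 7 days at 4 °C. Inguinal white fat, a subcutaneous depot, was taken for RNA sequencing. The labels name no Cre for the controls, so the presence of Cre and the loss of Foxp4 cannot be told apart.

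Serine is made from the glycolytic intermediate 3-phosphoglycerate in 3 steps, catalysed in turn by Phgdh, Psat1 and Psph. Serine hydroxymethyltransferases then split serine into glycine and a one-carbon unit carried on tetrahydrofolate. In mitochondria that unit is oxidised and released as formate, and in the cytosol formate is loaded back onto folate for purine, thymidylate and methionine synthesis. The serine-synthesis genes and Mthfd2 are known targets of ATF4, the transcription factor of the integrated stress response, and in fat the same reactions supply NADPH, glycine and methyl groups.

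Each library held between 13180527 and 15998299 reads on annotated genes, recovered from the deposited FPKM values (fragments per kilobase of exon, scaled to library size). Foxp4 stood at 1.92, 1.71 and 1.64 FPKM in the knockouts, against 5.76, 4.01 and 4.62 FPKM in the controls, so the groups were apart in the direction of the labels. Limma gave Foxp4 a log2 fold change of -1.06 (SE 0.12; adjusted p = 0.0705, threshold 0.05). Adjusted p-values here are from limma on log2(FPKM + 1) with Benjamini-Hochberg adjustment over the 10787 genes whose mean reached 1 FPKM in the knockouts or the controls. Fold changes on this scale, always knockout minus control, understate those of genes with low values.

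No gene of the pathway passed the test. The highest values relative to controls were those of Mthfd2, a mitochondrial dehydrogenase of the folate cycle, at 1.94 times the control mean, and of Psph, the last enzyme of serine synthesis, at 1.36 times. Phgdh and Psat1, the first enzymes of serine synthesis, had lower means in the knockouts but overlapped with the controls. Of the 8 genes that reached the expression filter, 4 had a positive and 4 a negative fold change, and their median log2 fold change was 0.03, beside -0.08 over all genes tested. Without control replicate 2 the median of the 8 was -0.03. With 0 of 8 at an adjusted p under 0.05, the share over all genes was 0.00927%. At an unadjusted p under 0.05 in limma, 2 of the 8 were higher in the knockouts (Mthfd2 and Psph) and 0 lower, while over all genes 6.98% were higher and 17.1% lower. Every knockout lay above every control in 3 of the 10 genes (Mthfd2, Psph and Shmt1), where 8.48% of all genes tested did so, and below every control in 0 of 10, where 22.7% of all genes did so. The other 7 overlapped between genotypes, among them Mthfd1l and Aldh1l2, which did not reach the filter. Over all genes the split by direction moved with the library scaling: 753 genes were higher and 1848 lower as deposited, 1404 higher and 1001 lower after median-of-ratios scaling, and 1186 higher and 1235 lower after upper-quartile scaling.

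**Figure D1:**
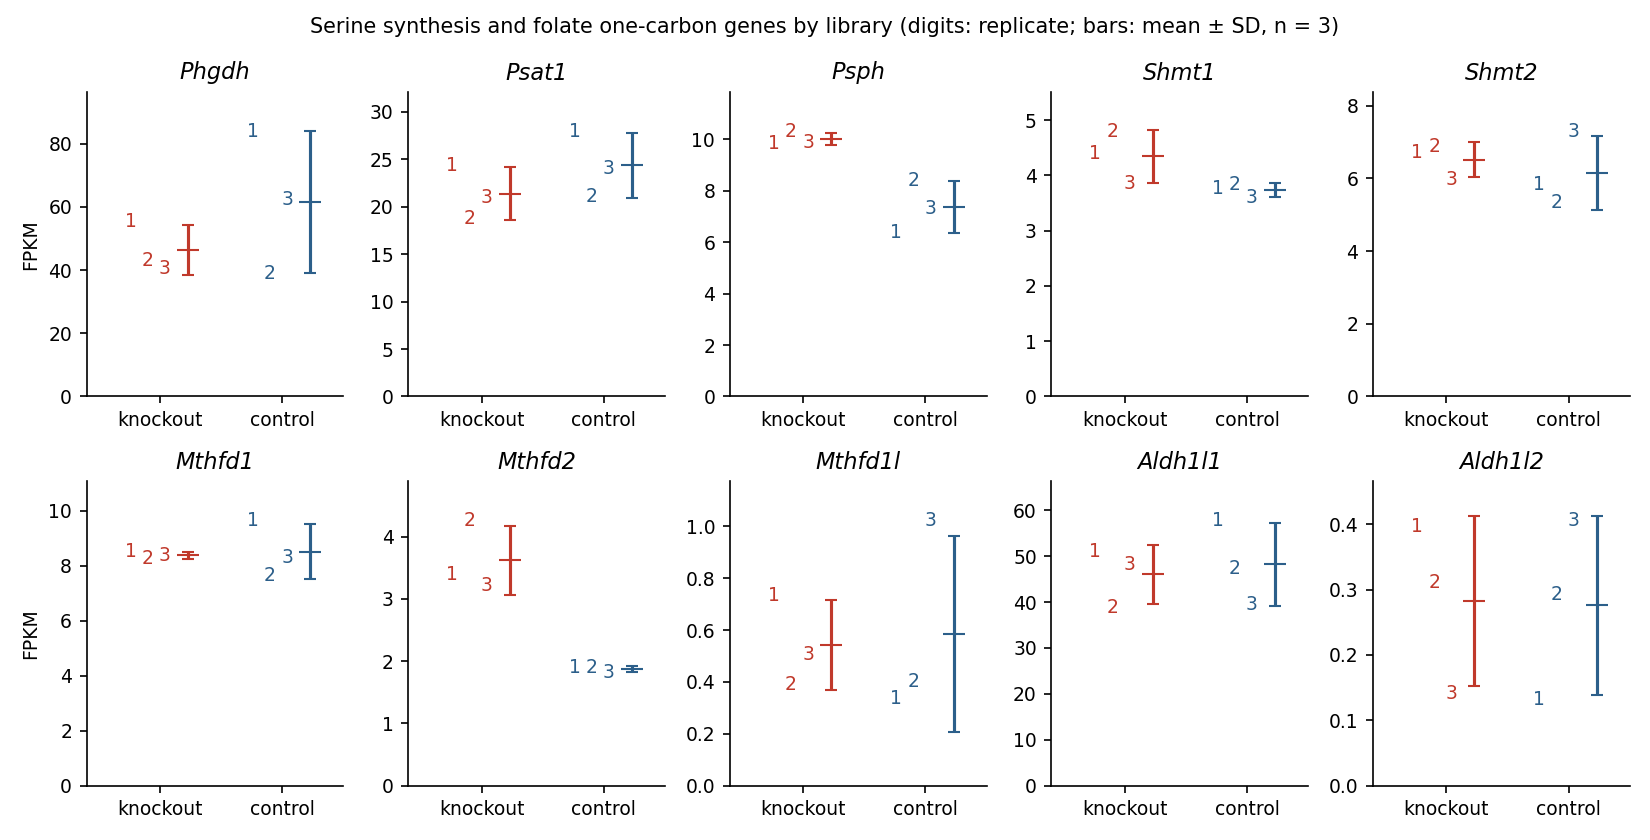
FPKM of the 10 enzymes in each library, with the 3 knockouts (left in each panel) and the 3 controls as points and the group mean and SD as a bar. Mthfd2 is apart between genotypes, at 3.22 to 4.25 FPKM in the knockouts and 1.81 to 1.90 FPKM in the controls, whereas Phgdh overlaps, at 40.6 to 55.4 FPKM in the knockouts and 38.8 to 83.8 FPKM in the controls.

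Markers of some cell types also differed between the genotypes. Summed FPKM of 11 markers of mature adipocytes, among them Fabp4, Cfd and Pnpla2, ranged from 10560 to 11450 in the knockouts and from 13214 to 14640 in the controls. This gap was carried by Cfd, the serine protease adipsin, at 3569 to 4409 FPKM in the knockouts and 5796 to 6621 FPKM in the controls. Without it the sums overlapped, at 6977 to 7428 in the knockouts and 7144 to 8844 in the controls. In 3 of the 11 markers (Cfd, Adipoq and Cidec) every knockout lay below every control, where 22.7% of all genes tested did so. Summed FPKM of 8 brown and beige markers, Ucp1 among them, ranged from 3351 to 5002 in the knockouts and from 1490 to 3299 in the controls. Every knockout lay above every control in 3 of the 8, where 8.48% of all genes tested did so, and below in 0. The sum of 11 macrophage markers ranged from 384 to 495 in the knockouts and from 601 to 808 in the controls. All 11 macrophage markers were lower in every knockout than in every control, where 22.7% of all genes tested were. Sums of epithelial markers were also apart but near the floor, at 0.595 to 1.16 FPKM in the knockouts and 1.31 to 2.85 FPKM in the controls. Of these 10 markers, 0 reached the expression filter, and Krt14 and Wap were at 0 in all 6 libraries. Sums of the other lists overlapped: progenitors and fibroblasts summed to 480 to 609 against 505 to 1179 FPKM, endothelium to 99.0 to 138 against 98.5 to 182, Schwann cells to 128 to 172 against 125 to 195, cycling cells to 20.1 to 30.6 against 19.3 to 28.6, skeletal muscle to 22.9 to 358 against 18.1 to 76.0, erythroid cells to 580 to 1100 against 977 to 1951, and lymph node B and T cells to 2.39 to 4.94 against 3.75 to 5.48, each in knockouts against controls. Every knockout lay below every control in 5 of the 11 progenitor and fibroblast markers, where 22.7% of all genes tested did so. In 0 did every knockout lie above, and 10 of the 11 had a negative log2 fold change (median -0.42). All 10 tested skeletal muscle markers had a positive log2 fold change (median 1.07). The groups were apart in 0 of them, and knockout replicate 3 had the highest sum, 358 FPKM. The part that these differences have in the values of the serine and folate genes was not tested, and in bulk tissue fewer cells of a type and less RNA per cell cannot be told apart.

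The genes of serine synthesis did not share a direction of fold change, and none had an adjusted p under 0.05 in limma. Phgdh (chromosome 3, 98313170 to 98339990, minus strand, mm10), which oxidises 3-phosphoglycerate in the first committed step, stood at 55.4, 43.0 and 40.6 FPKM in the knockouts, against 83.8, 38.8 and 62.4 FPKM in the controls. Control replicate 1 was the highest of the 6 and control replicate 2 the lowest, so all 3 knockouts lay within the range of the controls. The means were 46.3 ± 7.92 FPKM in the knockouts and 61.7 ± 22.5 FPKM in the controls (SD, n = 3 each), for which limma gave a log2 fold change of -0.35 (SE 0.27, 95% interval -0.98 to 0.28, adjusted p = 0.443). A processed pseudogene, Phgdh-ps1, lies on chromosome 7, and how reads that match both were counted is not stated. Without control replicate 2 the log2 fold change was -0.65 (adjusted p = 0.12 in limma), and without control replicate 1 it was -0.10.

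Psat1 (chromosome 19, 15904678 to 15947337, minus strand), the aminotransferase that makes phosphoserine with glutamate as the amino donor, stood at 24.4, 18.8 and 20.998 FPKM in the knockouts, against 27.9, 21.1 and 24.1 FPKM in the controls. The groups overlapped, with control replicate 1 again the highest library. The log2 fold change of -0.18 (SE 0.13, 95% interval -0.49 to 0.13, adjusted p = 0.428 in limma) is of the same sign as that of Phgdh, and both stayed negative, at -0.25 for Phgdh and -0.08 for Psat1, after median-of-ratios scaling. For Psat1 it was -0.09 without knockout replicate 2 and -0.08 without control replicate 1, and -0.27 without knockout replicate 1 or control replicate 2.

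Psph (chromosome 5, 129765558 to 129787449, minus strand), the phosphatase that releases free serine, stood at 9.86, 10.3 and 9.89 FPKM in the knockouts, against 6.36, 8.41 and 7.32 FPKM in the controls. Every knockout lay above every control, and the knockouts were closer together than the controls. These values rest on 592 to 648 reads in the knockouts and 388 to 532 reads in the controls. Limma placed the log2 fold change at 0.40 (SE 0.10), within a 95% interval of 0.17 to 0.64, at an unadjusted p of 0.0050 and an adjusted p of 0.0976. Exons of Psph share 452 bases, 10.4% of its exon bases, with Cct6a on the opposite strand, and the strand setting of the counting is not given in the sources used here. Cct6a, a chaperonin subunit, stood at 23.8, 23.7 and 23.2 FPKM in the knockouts and 24.2, 21.2 and 22.6 FPKM in the controls. The ratio of Phgdh to Psph, the first to the last enzyme of the path, was 5.62, 4.18 and 4.10 in the knockouts and 13.2, 4.61 and 8.52 in the controls. The ratios of control replicates 1 and 3 were above every knockout ratio, and that of control replicate 2 was not.

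The hydroxymethyltransferases, which pass the one-carbon unit of serine to folate, were close between the genotypes. Cytosolic Shmt1 (chromosome 11, 60788104 to 60811718, minus strand) stood at 4.39, 4.79 and 3.85 FPKM in the knockouts, against 3.77, 3.84 and 3.59 FPKM in the controls. The groups did not overlap, but the lowest knockout and the highest control, at 3.85 and 3.84 FPKM, were nearly equal, and the log2 fold change of 0.17 (SE 0.09, 95% interval -0.04 to 0.38) was not called by limma (adjusted p = 0.291). Shmt1 shares 184 exon bases, 4.74% of its total, with Smcr8 on the opposite strand, which stood at 6.39, 6.80 and 5.93 FPKM in the knockouts and 6.41, 5.73 and 5.50 FPKM in the controls. Mitochondrial Shmt2 (chromosome 10, 127517123 to 127522444, minus strand) stood at 6.70, 6.88 and 5.97 FPKM in the knockouts, against 5.82, 5.33 and 7.28 FPKM in the controls. Its groups overlapped, with the highest value in a control, and limma put its log2 fold change at 0.08 (SE 0.12, adjusted p = 0.695).

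Mthfd2 (chromosome 6, 83305691 to 83325908, minus strand), a mitochondrial enzyme that oxidises methylene-tetrahydrofolate and opens the ring to formyl-tetrahydrofolate, had the largest log2 fold change of the 8 tested enzymes. It stood at 3.39, 4.25 and 3.22 FPKM in the knockouts, against 1.89, 1.90 and 1.81 FPKM in the controls. The lowest knockout lay well above the highest control, and the controls were nearly equal. The means were 3.62 ± 0.553 FPKM in the knockouts and 1.87 ± 0.0486 FPKM in the controls (SD, n = 3 each), and they rest on 170 to 197 reads in the knockouts and 93 to 102 reads in the controls. In limma this was a log2 fold change of 0.68 (SE 0.10; 95% interval 0.44 to 0.92; adjusted p = 0.0705). Of the 10787 genes, 114 had a larger log2 fold change and 36 a smaller p. Leaving out any 1 library gave log2 fold changes between 0.59 and 0.74, and the adjusted p over all alternatives ranged from 0.0537 to 0.289 in limma. The related gene Mthfd2l, from the list of other folate genes, stood at 2.06, 2.21 and 2.23 FPKM in the knockouts, against 2.02, 2.50 and 2.15 FPKM in the controls. Its groups overlapped (log2 fold change -0.02, adjusted p = 0.888 in limma).

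The other enzymes that carry the unit between formate and methylene-tetrahydrofolate were level or too low to compare. Cytosolic Mthfd1 (chromosome 12, 76255298 to 76319803, plus strand), a trifunctional enzyme, stood at 8.51, 8.26 and 8.36 FPKM in the knockouts, against 9.62, 7.63 and 8.28 FPKM in the controls. The groups overlapped, and limma put the log2 fold change at -0.02 (SE 0.09, 95% interval -0.23 to 0.20, adjusted p = 0.932), with the sign turned under both other scalings. Mitochondrial Mthfd1l (chromosome 10, 3973118 to 4167081, plus strand), which releases formate, stood at 0.732, 0.391 and 0.507 FPKM in the knockouts, against 0.336, 0.401 and 1.02 FPKM in the controls. These overlapping values rest on 23 to 48 reads in the knockouts and 21 to 73 reads in the controls, and a fit without the expression filter gave a log2 fold change of -0.02 (adjusted p = 0.961 in limma).

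The 10-formyltetrahydrofolate dehydrogenases, which oxidise the one-carbon unit to CO2 and yield NADPH, differed widely in level from each other. Cytosolic Aldh1l1 (chromosome 6, 90486427 to 90600203, plus strand) stood at 51.1, 38.8 and 48.2 FPKM in the knockouts, against 57.7, 47.4 and 39.5 FPKM in the controls. The groups overlapped, and the log2 fold change of -0.06 (SE 0.16, 95% interval -0.43 to 0.32, adjusted p = 0.842 in limma) turned positive under both other scalings. An antisense gene, Gm15756, covers 499 of the exon bases of Aldh1l1, 11.05% of them. A noncoding gene on the same strand, Gm45901, covers 105, or 2.33%. Neither has FPKM values here. Mitochondrial Aldh1l2 (chromosome 10, 83487450 to 83534140, minus strand) stood at 0.397, 0.311 and 0.141 FPKM in the knockouts, against 0.132, 0.292 and 0.405 FPKM in the controls. Its values rest on 16 to 44 reads in the knockouts and 14 to 49 reads in the controls and overlapped fully. The log2 fold change without the filter was 0.01 (adjusted p = 0.978 in limma), and 14.1% of its exon bases are shared with D10Wsu102e.

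**Figure D2:**
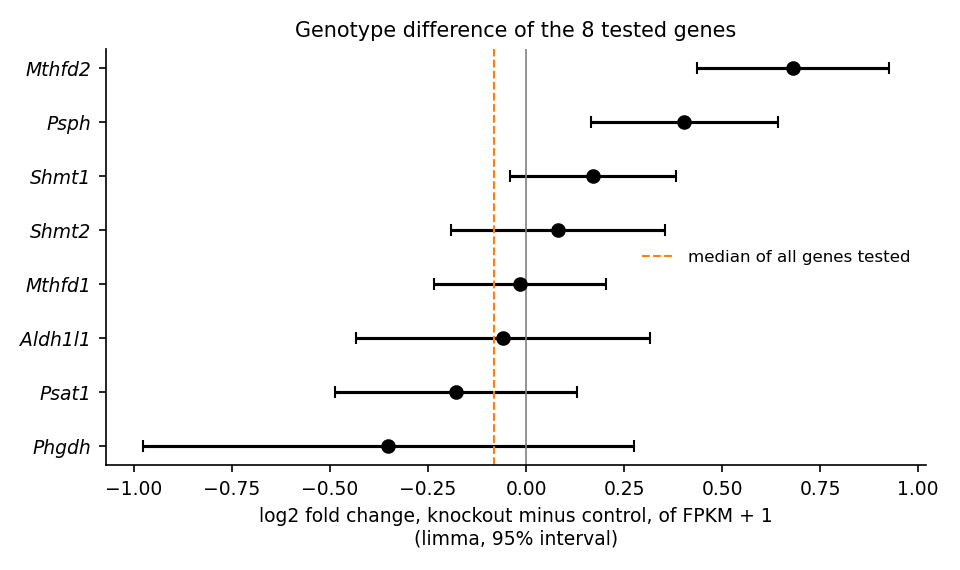
Log2 fold change, knockout minus control, of the 8 tested enzymes in limma on log2(FPKM + 1), with 95% intervals and the median of all genes tested as a dashed line. The intervals of Mthfd2, 0.44 to 0.92, and Psph, 0.17 to 0.64, lie above 0, and the other 6 include 0.

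The proximal promoters of Mthfd2 and Psph are shown because these genes had the highest values relative to controls, and those of Phgdh and Psat1 because they varied together across libraries and opposite to Psph. They are from the RefSeq promoter table of GRCm38.p6, from 250 bases before to 50 bases after the annotated start, written 5′ to 3′ on the gene's strand, with each CCAAT or its complement ATTGG in capitals. For Psat1 the window at the upstream of 2 annotated starts is shown.
Mthfd2, chr6:83317555-83317854, minus strand: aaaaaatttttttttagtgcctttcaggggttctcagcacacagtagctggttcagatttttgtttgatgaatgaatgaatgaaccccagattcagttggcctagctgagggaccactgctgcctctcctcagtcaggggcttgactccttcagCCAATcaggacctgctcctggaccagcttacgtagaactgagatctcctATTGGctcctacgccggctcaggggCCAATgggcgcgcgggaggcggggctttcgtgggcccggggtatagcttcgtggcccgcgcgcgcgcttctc
Psph, chr5:129787204-129787503, minus strand: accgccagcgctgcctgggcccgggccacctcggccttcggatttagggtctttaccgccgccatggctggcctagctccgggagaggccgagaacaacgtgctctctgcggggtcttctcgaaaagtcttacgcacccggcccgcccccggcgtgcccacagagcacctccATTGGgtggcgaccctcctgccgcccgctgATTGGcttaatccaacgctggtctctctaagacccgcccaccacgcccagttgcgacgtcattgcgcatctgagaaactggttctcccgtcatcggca
Phgdh, chr3:98339920-98340219, minus strand: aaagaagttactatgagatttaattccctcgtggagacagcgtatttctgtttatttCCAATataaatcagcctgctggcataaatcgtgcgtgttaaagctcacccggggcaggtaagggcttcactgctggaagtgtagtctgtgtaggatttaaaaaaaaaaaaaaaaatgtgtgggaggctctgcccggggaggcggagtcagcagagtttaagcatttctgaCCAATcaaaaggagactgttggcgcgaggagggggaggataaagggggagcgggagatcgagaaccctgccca
Psat1, chr19:15925010-15925309, minus strand: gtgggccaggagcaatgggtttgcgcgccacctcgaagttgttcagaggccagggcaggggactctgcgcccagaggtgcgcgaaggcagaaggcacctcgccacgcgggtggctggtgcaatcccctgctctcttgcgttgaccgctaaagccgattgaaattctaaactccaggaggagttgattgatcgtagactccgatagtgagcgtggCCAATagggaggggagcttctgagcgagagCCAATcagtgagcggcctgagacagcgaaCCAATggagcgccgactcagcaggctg
The CCAAT letters stand 3 times in the Mthfd2 window and 3 times in the Psat1 window, and 2 times each in those of Psph and Phgdh. Of the 10 windows of 9 matched genes (Aldh1l2 had none in the table), 7 held at least 1 copy on either strand and 5 at least 2, where 37.4% and 11.7% of all 32851 windows did so. These letters were searched after the sequences had been seen. TGATGNAA, the core of the C/EBP-ATF response element that ATF4 binds, was in 0 of the 10 windows and in 3.97% of all windows, and TGTTTAC, a forkhead core, was in 0 of the 10 and in 3.65% of all. A match is not a binding site, and no match says only that the letters are not in these windows.

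Ratios of mitochondrial to cytosolic isozymes compare genes within a library, independent of its scaling. Mthfd2l is in none of the 4 ratios. The ratio of Mthfd2 to Mthfd1 was 0.399, 0.515 and 0.385 in the knockouts, against 0.197, 0.250 and 0.219 in the controls, with no overlap. Its mean log2 ratio was 0.96 higher in the knockouts, with a two-sided exact permutation p of 0.10, the smallest that 3 against 3 allows, and 0.40 after adjustment over the 4 ratios. Shmt2 over Shmt1 averaged 1.51 ± 0.0613 in the knockouts and 1.65 ± 0.333 in the controls (SD, n = 3 each; exact permutation p = 0.80). Mthfd1l over Mthfd1 averaged 0.0646 ± 0.0197 in the knockouts and 0.0703 ± 0.0468 in the controls, and Aldh1l2 over Aldh1l1 averaged 0.00624 ± 0.00287 in the knockouts and 0.00623 ± 0.00398 in the controls (SD, n = 3 each; exact permutation p = 1 for both).

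**Figure D3:**
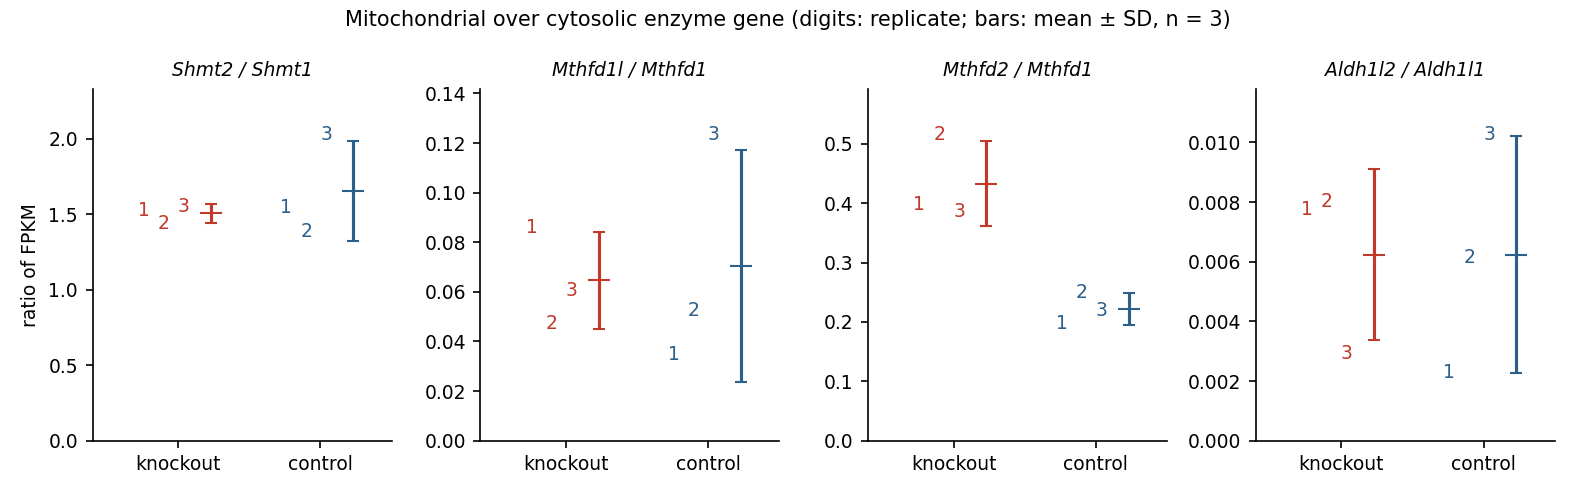
Ratio of FPKM of the mitochondrial to the cytosolic isozyme in each library on linear axes from 0, knockouts left of controls in each of the 4 pairs. Mthfd2 over Mthfd1 is apart between genotypes, at 0.385 to 0.515 in the knockouts and 0.197 to 0.250 in the controls, and the other 3 ratios overlap.

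The 10 enzymes differed widely in level. Per length, Phgdh and Aldh1l1 were the highest and overlapped in both genotypes, followed by Psat1, which lay apart from both. In the knockouts Psph, Mthfd1 and Shmt2 followed in that order without overlap, then Shmt1 and Mthfd2, which overlapped. In the controls Psph overlapped with Mthfd1 above it and with Shmt2 below it, Mthfd1 and Shmt2 lay apart, Shmt1 lay below all 3, and Mthfd2 stood below Shmt1 without overlap. Mthfd1l and Aldh1l2 were the lowest of the 10 genes, at a mean of 0.543 and 0.283 FPKM in the knockouts and 0.586 and 0.276 FPKM in the controls. Phgdh, Aldh1l1 and Psat1 together made up 79.4, 74.1 and 77.5% of the summed FPKM of the 10 genes in the knockouts and 85.8, 79.4 and 80.9% in the controls.

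Across the 6 libraries the genes varied in sets. Phgdh correlated with Psat1 (Pearson r = 0.91) and Mthfd1 (r = 0.85), and Shmt1 with Mthfd2 (r = 0.88). After removal of the group means these values were 0.88, 0.91 and 0.89. Psph ran opposite to Phgdh (r = -0.78, or -0.93 with group means removed) and to Psat1 (r = -0.77, or -0.83), while its correlation with Mthfd2 was 0.88 with group means kept and 0.19 with them removed. All values are over 6 libraries that share depth and composition, and they are given as a description. The genes whose values were most like the mean profile of the 8 tested enzymes were Abhd15 (r = 0.995), Gspt1 (r = 0.994) and Slc27a4 (r = 0.992) over the 6 libraries. They are the top of a search over all other genes tested, so these values of r are high by selection. The mean profile also joins genes that ran opposite to each other, such as Phgdh and Psph.

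**Figure D4:**
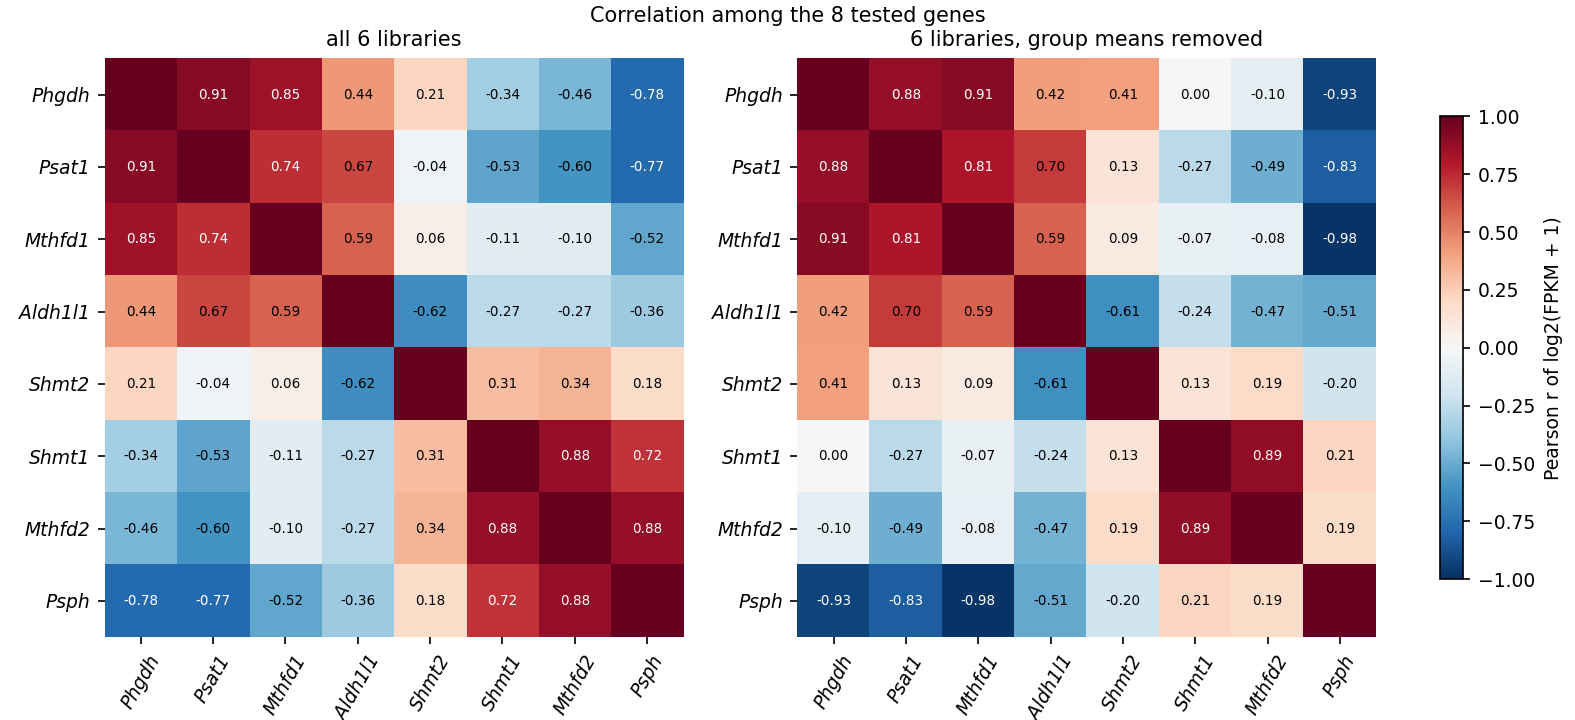
Pearson correlation of log2(FPKM + 1) between the 8 tested enzymes over the 6 libraries, with group means kept (left) and removed (right). Phgdh and Psat1 stand at 0.91 and 0.88, Phgdh and Psph at -0.78 and -0.93.

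Among genes of the connected pathways, 0 of the 85 tested had an adjusted p under 0.05 in limma. Counts below are at an unadjusted p under 0.05 in limma, where 6.98% of all genes were higher and 17.1% lower in the knockouts. Of 13 tested genes of the folate cycle and folate transport outside the 10 enzymes, 2 were higher and 3 lower, with a median log2 fold change of -0.02. The lower ones were methionine synthase Mtr (2.50, 2.46 and 2.54 FPKM in the knockouts, against 3.01, 3.19 and 3.01 FPKM in the controls), the folate hydrolase Ggh and Mthfsl, and the higher ones were the proton-coupled folate transporter Slc46a1 and the thymidylate synthase Tyms. Tyms stood at 1.18, 1.45 and 0.987 FPKM in the knockouts and 0.653, 0.809 and 0.937 FPKM in the controls.

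Of 9 tested genes in the list of serine and glycine transport, 1 was higher and 4 were lower, with a median of -0.22. That list holds Slc25a28, a mitochondrial iron carrier whose own value is this median, and without it the median of the other 8 was -0.30, with 1 higher and 4 lower. The 4 lower ones were Slc7a10, a plasma-membrane carrier of serine and glycine, the mitochondrial carriers Sfxn3 and Sfxn2 and the mitochondrial glycine carrier Slc25a38. Slc7a10 stood at 50.6, 50.4 and 42.8 FPKM in the knockouts, against 75.5, 61.8 and 57.0 FPKM in the controls, with no overlap (log2 fold change -0.42, adjusted p = 0.124 in limma). Of 14 genes of glycine cleavage and other serine or glycine use, 3 were higher and 3 lower, with a median of 0.10. The lower ones were Gatm, of creatine synthesis, Sptlc2, of sphingolipid synthesis, and Ptdss1, of phosphatidylserine synthesis, and Sdsl, a serine dehydratase-like protein, was among the higher ones.

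Of 11 tested genes of the methionine cycle and transsulfuration, 1 was higher and 0 were lower, with a median of -0.03. The higher one was Cth, the cystathionine lyase, at 3.59, 4.05 and 2.77 FPKM in the knockouts and 2.72, 1.47 and 2.56 FPKM in the controls. Mat1a, Bhmt, Bhmt2 and Dmgdh were listed at 0 in all 6 libraries. Of 13 genes of purine synthesis, 2 were higher (Adssl1 and Gmps) and 2 lower (Prps1 and Impdh2), with a median of -0.08.

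Of 25 tested genes in the list of ATF4 and its targets, 7 were higher and 4 lower, with a median of 0.14, beside -0.08 over all genes. Atf5, a stress-response transcription factor, stood at 77.1, 80.9 and 77.4 FPKM in the knockouts, against 62.4, 51.2 and 59.4 FPKM in the controls (log2 fold change 0.44, adjusted p = 0.0823 in limma). Ddit3, which encodes CHOP, stood at 7.22 to 8.87 FPKM in the knockouts, against 4.64 to 6.08 FPKM in the controls (0.54, adjusted p = 0.0823 in limma). Fgf21, a secreted metabolic hormone, stood at 3.63, 8.08 and 4.86 FPKM in the knockouts, against 2.46, 0.935 and 1.70 FPKM in the controls (1.26, adjusted p = 0.0882 in limma). In these 3 genes and in Cebpb (log2 fold change 1.03, adjusted p = 0.0844 in limma) every knockout lay above every control. This held for 8 of the 25, where 8.48% of all genes tested did so. Every knockout lay below every control in 4 of the 25, where 22.7% of all genes did so. Of the 25, 16 had a positive and 9 a negative log2 fold change, and the lowest was -0.56. Atf5, Ddit3, Fgf21 and Cebpb were named for the smallest unadjusted p of the list in limma. The genes lower at an unadjusted p under 0.05 fell outside that choice. Atf4 itself overlapped, with a log2 fold change of 0.24 (adjusted p = 0.316 in limma), as did Asns, the asparagine synthetase, at -0.19.

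**Figure D5:**
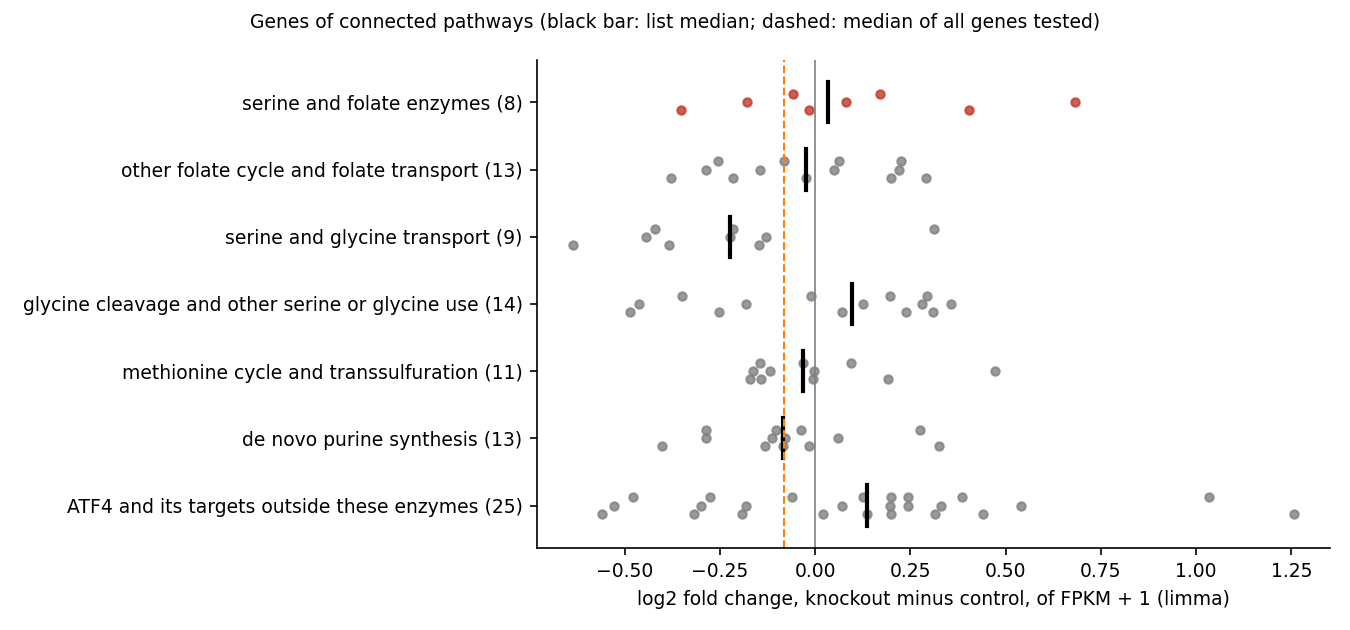
Log2 fold change, knockout minus control, of each tested gene in the serine and folate enzymes and in 6 lists of connected pathways, with the list median as a black bar and the median of all genes tested, -0.08, as a dashed line. The list medians range from -0.22 for serine and glycine transport, or -0.30 without the iron carrier Slc25a28 that the list holds, to 0.14 for ATF4 and its targets.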

How the data were processed

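Per the labels' protocols, total RNA of the fat pad was extracted with Trizol, and libraries from a stranded kit for mRNA were read on an Illumina sequencer. The submitters' processing notes name cutadapt, HISAT2, HTSeq and mm10. Their versions, the annotation and the strand setting were not given in the sources used here. The deposited values are FPKM per gene, made by the authors; the unit was read from the values, since the design allowed for counts or a normalized unit. Multiplied by the merged exon length (GENCODE M21) and 1 scale per library, 97.9 to 98.1% of values up to 50 reads were whole within 0.05, which gave the recovered reads of 21303 genes; 36 rows that repeat a symbol were left out. The intervals given are those of the fit.

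Genes whose mean reached 1 FPKM in at least one genotype were tested on log2(FPKM + 1) with limma (version 3.58.1, R 4.3.3), using its trend option, all 6 libraries, genotype alone as predictor, and Benjamini-Hochberg adjustment with a threshold of 0.05. The script was tested on simulated data. Isozyme ratios used an exact two-sided permutation test. Lists are described by counts and medians. Whether a sample is 1 mouse or several pooled is not in the labels, and p-values thus reflect only the spread between these samples. The 10 genes and all lists were chosen with earlier results of these data known. Named genes are the 10 enzymes, Foxp4, up to 4 genes per pathway list with the smallest unadjusted p, leading markers, and the 3 genes most like the mean profile. Tyms, Mthfd2l, Atf4, Asns, Slc25a28, Adipoq, Cidec, Krt14, Wap, the genes at 0, those sharing exon bases and those in the closing section were chosen after values were seen. Alternatives were a pseudocount of 0.1, no filter, 2 other scalings, no trend, the replicate block and each library left out; a filter at 0.1 FPKM limma-voom on recovered reads, the transport list without Slc25a28 and the adipocyte markers without Cfd were added after the data were seen.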

Additional observations from a re-analysis of the deposited data

How the results depend on the processing

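Of 544 alternative log2 values, 25 turned in sign: 8 of 462 for 33 genes (the named genes of the pathway lists, the enzymes and Foxp4), 10 of 50 for list medians and 7 of 32 for isozyme ratios. None of the 33 genes followed crossed the adjusted p threshold of 0.05 in limma under these alternatives. The count of all genes at an adjusted p under 0.05 in limma, 1, was 0 without a filter, 3 with a filter at 0.1 FPKM, 0 with limma-voom on recovered reads and 0 to 5 with 1 library left out (0 without knockout replicate 1 or control replicate 1, 3 without knockout replicate 3 and 5 without control replicate 3). The count of the 8 enzymes lower at an unadjusted p under 0.05 was 0 to 1 with 1 library left out; the 1 was Phgdh without control replicate 2. Under median-of-ratios scaling Mthfd1 stood at 0.073 and Aldh1l1 at 0.038 on the log2 scale, and under upper-quartile scaling at 0.047 and 0.0094. With 1 library left out, Mthfd1 ranged from -0.083 to 0.067, Aldh1l1 from -0.19 to 0.077 and Shmt2 from -0.0022 to 0.19. Median-of-ratios scaling gave list medians of 0.12 for the enzymes, 0.043 for other folate genes, -0.13 for serine and glycine transport, 0.058 for the methionine cycle, 0.0041 for purine synthesis and 0.23 for ATF4 and its targets. With 1 library left out, list medians ranged from -0.032 to 0.072 for the enzymes, -0.070 to 0.037 for other folate genes, 0.016 to 0.15 for glycine use, -0.041 to 0.034 for the methionine cycle and -0.12 to 0.015 for purine synthesis. Without Slc25a28 the median for serine and glycine transport was -0.30. Log2 ratio differences then ranged from -0.23 to 0.039 for Shmt2 over Shmt1, -0.36 to 0.55 for Mthfd1l over Mthfd1, -0.49 to 0.59 for Aldh1l2 over Aldh1l1 and 0.83 to 1.05 for Mthfd2 over Mthfd1. The cause of these shifts was not tested.

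Same-numbered knockouts and controls correlated at 0.065, 0.027 and -0.25 in their deviations from the group means. Those with different numbers ranged from -0.23 to 0.18. No pairing by number was seen, but so few samples cannot exclude it. With the replicate block in the fit, the count of genes at an adjusted p under 0.05 was 0 in place of 1, and at an unadjusted p under 0.05 it was 2218 in place of 2601. Depth limits Mthfd1l and Aldh1l2, with 14 to 73 reads per library.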

Other observations

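Among the 85 tested genes of the connected pathways, the gene most like Phgdh over the 6 libraries was Slc1a5, a neutral amino acid transporter (Pearson r = 0.989, chosen after its values were seen). Slc1a5 stood at 397, 314 and 325 FPKM in the knockouts, against 634, 310 and 458 FPKM in the controls, with control replicate 1 the highest and control replicate 2 the lowest, as for Phgdh. The genes most like Mthfd2 were Fgf21 (r = 0.915), Atf5 (r = 0.913) and Tyms (r = 0.882).

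The genes most like Psph were Gars, the glycyl-tRNA synthetase (r = 0.932), Slc25a32, the mitochondrial folate carrier (r = 0.932), and Dld, the dihydrolipoamide dehydrogenase of glycine cleavage and of pyruvate oxidation (r = 0.922). Gars stood at 57.4, 60.6 and 53.5 FPKM in the knockouts, against 43.9, 50.4 and 50.2 FPKM in the controls. Slc25a32 stood at 8.92 to 10.2 FPKM in the knockouts, against 6.88 to 8.87 FPKM in the controls. Dld stood at 197, 220 and 192 FPKM in the knockouts, against 138, 178 and 178 FPKM in the controls. In all 3 genes every knockout lay above every control, where 8.48% of all genes tested did so. Psph is itself apart in this way, so choosing genes by their likeness to Psph favours such genes. All these correlations are over 6 libraries, are descriptions, and partly follow the difference between genotypes.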
